A study of Mus musculus with 6 samples.

Results

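The SLC25 genes encode the mitochondrial carriers, the largest family of transporters of the inner mitochondrial membrane. Here the family was taken as every row of the count table whose whole symbol was Slc25a followed by digits, which gave 47 of 33157 rows. Of these, 41 had enough counts to be tested, and 6 did not. The samples were group 3 innate lymphoid cells (ILC3s), lymphocytes of the gut wall that defend the epithelium, sorted from the gut (small intestine) of mice with a wild-type genotype. One group of 3 libraries came from cells given interferon-γ (IFN-γ, 20 ng/mL) together with insulin-like growth factor 1 (IGF-1, 200 ng/mL), labelled Igf1, and the other 3 came from cells given the same dose of IFN-γ alone, labelled Ctrl. The sort kept CD45+ (CD45dim) cells without lineage markers that were high in CD90.2, positive for CD127 and negative for KLRG1. All cells were stimulated for 4 h in complete RPMI medium, and no culture was free of IFN-γ. No label ties a library to its own mouse or culture, so each p-value rests on a library-to-library spread that may be technical, and the age and sex of the mice are not given.

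Mitochondrial carriers are nuclear-encoded proteins built from repeats of a membrane-spanning unit, and most exchange one metabolite of the matrix for another of the cytosol. Through them ADP enters and ATP leaves the matrix, reducing equivalents are shuttled as malate and aspartate, citrate leaves for lipid synthesis, and iron, glycine and glutathione enter for the making of haem and iron-sulfur clusters. A branch of the family, the uncoupling proteins, is named after the brown fat protein that lets protons leak back into the matrix. Growth factor signalling through PI3K and mTOR is known in lymphocytes for raising mitochondrial and biosynthetic activity.

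In these cells 1 carrier passed the test. Slc25a27, the brain-rich carrier also called UCP4, was lower with IGF-1, at 8.23 ± 1.99 CPM against 22.7 ± 5.87 CPM with IFN-γ alone (mean ± SD, n = 3 per group). CPM are TMM-scaled counts-per-million. Slc25a5, the main ADP/ATP carrier, and Slc25a37, the iron importer mitoferrin-1, stood higher in every library with IGF-1 but missed the threshold over all genes. Most of the remaining family lay close to 0 on the log2 scale. Of the tested carriers 58.5% were within 0.3 of 0, as were 60.5% of all genes. Fold changes set the cells with IGF-1 over those without it. They were tested by edgeR's quasi-likelihood test over 13483 genes with Benjamini-Hochberg adjustment, a gene being called at an adjusted p under 0.05. Counts per library totalled 32573713 to 39206449.

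The sorted cells carried the transcripts that define ILC3s. All 14 listed ILC3 markers were tested, with the IL-7 receptor chain Il7r at 417 ± 48.7 and 458 ± 21.5 CPM and the receptor Kit at 657 ± 26.5 and 690 ± 79.8 CPM in the cells with and without IGF-1. Genes listed for other lymphocytes were also detected, which does not by itself show that those cells were present. The 10 listed NK cell and ILC1 genes summed to 67.0 to 75.9 CPM with IGF-1 and 57.7 to 77.8 CPM without it. These sums were chiefly Klrb1c and Tbx21, with Eomes and Klra8 at 0 in all 6 libraries. From the same list, the cytotoxic gene Prf1 was at 5.38 ± 1.36 CPM with IGF-1 and 2.02 ± 0.572 CPM without it (adjusted p = 0.204 by edgeR), without overlap. Of the T cell list, Cd4, which ILC3 subsets also express, was at 23.1 ± 4.23 and 33.3 ± 2.73 CPM, and Cd247 at 1.47 ± 0.402 and 3.06 ± 0.673 CPM, each with every IGF-1 library below every control library and neither called. The T cell gene Cd3e stood at 0.715 ± 0.0602 and 0.833 ± 0.342 CPM. Cd3d, at 4.88 ± 2.26 and 2.35 ± 0.934 CPM, and Cd3g, at 13.3 ± 2.59 and 9.01 ± 4.08 CPM, lay the other way, with overlapping groups. Of the 6 T cell genes tested 2 were positive in log2 fold change and 4 negative. The macrophage gene Lyz2 was at 0.381 ± 0.102 and 0.327 ± 0.262 CPM, Cd68 at 14.4 ± 0.750 and 12.7 ± 2.80 CPM and Cd14 at 4.17 ± 1.94 and 2.81 ± 1.23 CPM. Of the 6 myeloid genes tested 4 were positive and 2 negative. The receptor chain Fcer1g, at 3172 ± 824 and 2347 ± 307 CPM, made up nearly all of the myeloid list, and Trbc2, at 689 ± 97.0 and 750 ± 99.2 CPM, most of the T cell list. The library of control replicate 3 stood apart by the plasma cell gene Jchain, at 519 CPM there and from 0.103 to 0.209 CPM in the other 5 libraries. Sdc1, from the same B and plasma cell list, was at 26.9 ± 2.44 CPM with IGF-1 and 47.6 ± 5.70 CPM without it. Its groups did not overlap, and it was not called (adjusted p = 0.0598 by edgeR). Cd79b was at 32.7 ± 4.29 and 26.5 ± 8.99 CPM, with overlapping groups. Mitochondrially encoded mRNAs summed to 19694 to 23282 CPM with IGF-1 and 15793 to 20445 CPM without it, and these sums overlapped. Of the 13, 12 were positive in log2 fold change (all genes 48.7%) and 0 were called (all genes 0.497%). At an unadjusted p under 0.05 by edgeR 2 were higher (all genes 5.58%). The 4 nuclear long noncoding RNAs were all negative, at sums of 1160 to 2209 and 1577 to 2862 CPM. The part of these differences in the carrier results was not tested. In libraries made from bulk cells, fewer expressing cells and less RNA per cell cannot be told apart.

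Of the 41 tested carriers 1 (2.44%) was called lower by edgeR at an adjusted p under 0.05, against 0.267% of all genes tested, and 0 were called higher, against 0.230%, so that the call in either direction was 1 carrier against 0.497% of all genes. At an unadjusted p under 0.05 there were 2 higher carriers (4.88%, all genes 5.58%) and 2 lower ones (4.88%, all genes 6.24%), together 9.76% against 11.8%. The log2 fold changes of the tested carriers ran from -1.47 to 0.85 with a median of 0.10, beside a median of -0.01 over all genes tested. Without IGF-1 replicate 3 the carriers' median was -0.02. A positive value was found for 24 carriers (58.5%, all genes 48.7%) and a negative one for 17, and 24 of the 41 (58.5%) lay within 0.3 of 0, as did 60.5% of all genes. In 4 carriers (9.76%, all genes 8.81%) every library with IGF-1 was above every control library. In another 4 (9.76%, all genes 9.17%) every one was below, which made 19.5% without overlap against 18.0% of all genes. Standard errors (SE) ranged from 0.11 for well covered carriers to 1.11 for the sparsest, and 9 carriers had an SE of 0.4 or more.

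**Figure D1:**
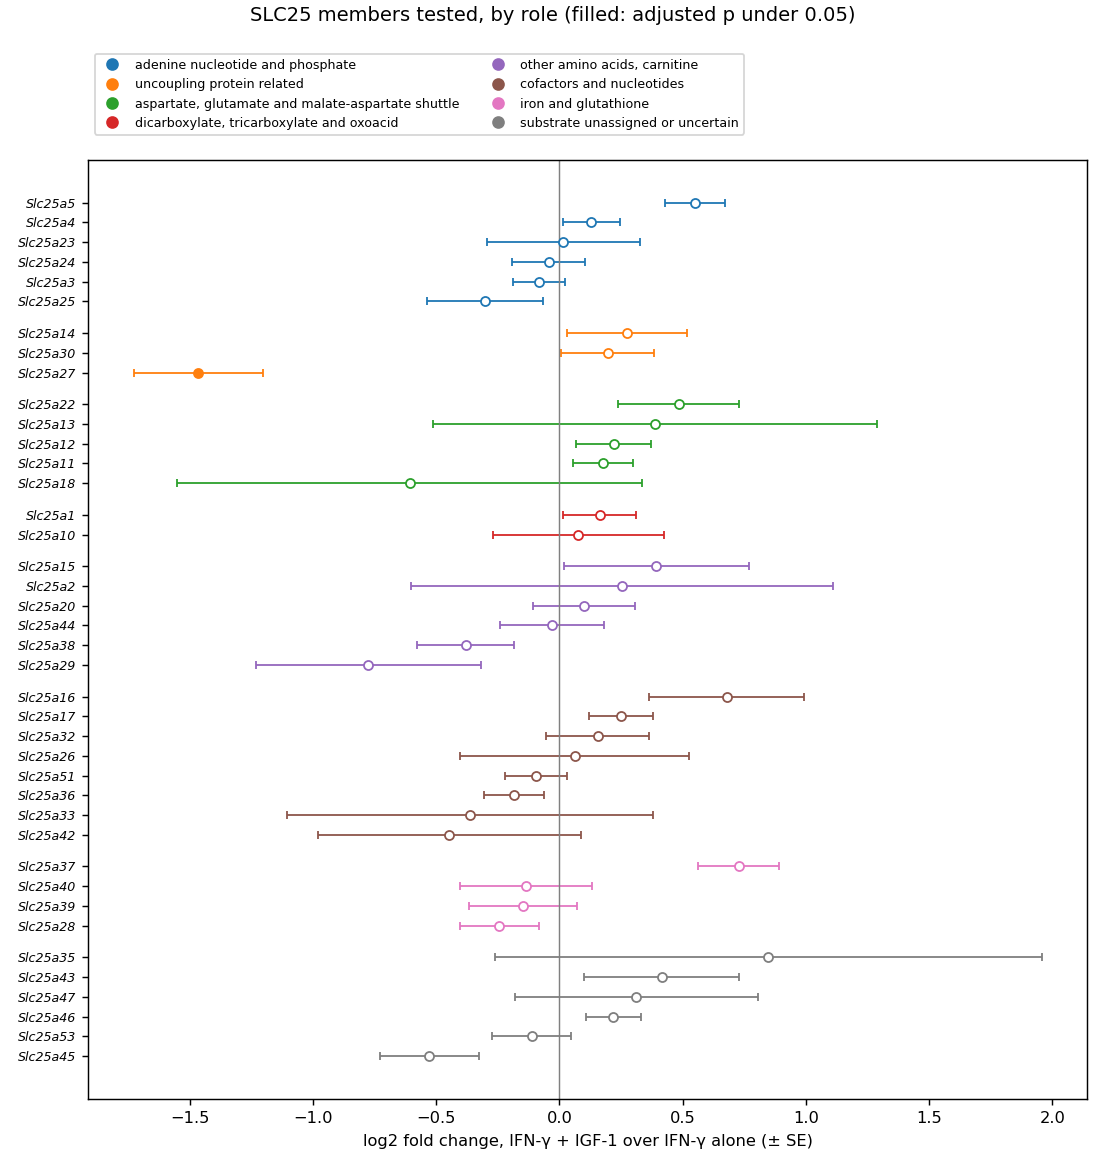
Log2 fold change (x axis, cells with IGF-1 over cells without it, all with IFN-γ) with its SE for 40 of the 41 tested SLC25 members, 1 row each, coloured by role; filled points have an adjusted p under 0.05. Slc25a27 at -1.47 is the single filled point, and Slc25a37 at 0.73 and Slc25a5 at 0.55 are the highest among those with an SE of 0.2 or less.

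The uncoupling-protein-related carriers held the called gene. Slc25a27 had 7.03, 7.13 and 10.5 CPM in the libraries with IGF-1, against 19.8, 18.9 and 29.5 CPM in the libraries with IFN-γ alone. The groups did not overlap, and the lowest control library was above the highest IGF-1 library. Its log2 fold change was -1.47 (SE 0.26), a change of -63.8%, with an adjusted p of 0.0442 by edgeR, and it ranked 59 by p among the 13483 genes. It was lower in 3 of 3 libraries. The call rested on all 6 libraries: with any 1 library left out the adjusted p was between 0.056 and 0.24 and the log2 fold change between -1.68 and -1.24. Control replicate 3, the library with Jchain, held the highest Slc25a27 value, and without it the log2 fold change was -1.24 (SE 0.28, adjusted p = 0.236). The adjusted p by edgeR was also above the threshold when libraries were scaled by total counts alone (0.0515) and with a replicate block (0.0695). By edgeR it stayed under the threshold with RLE scaling (0.0419) and with upper quartile scaling (0.0411). The same held without a filter on low counts (8.3e-06) and with a filter of 10 CPM in 3 libraries (0.0125). It was 3.06e-05 with DESeq2 and 0.046 by limma-voom. No stretch of 50 bases of the Slc25a27 transcript occurs in another gene of the GENCODE M21 annotation, and no other gene's exons overlap it there.

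Epcam, an adhesion molecule of epithelium, also fell with IGF-1 (17.6 ± 3.28 CPM, against 38.6 ± 6.97 CPM with IFN-γ alone, n = 3 each, adjusted p = 0.0442 by edgeR). With it the 11 epithelial markers summed to 16.4 to 23.9 CPM with IGF-1, against 33.8 to 49.7 CPM in the control libraries. Without Epcam the other epithelial markers summed to 1.77 to 4.73 CPM with IGF-1 and 2.12 to 4.14 CPM without it, with Vil1, Krt20 and Fabp2 each averaging under 0.5 CPM. The mucin Muc2, from the same list, lay the other way from Epcam, at 1.39 ± 0.428 CPM with IGF-1 and 0.319 ± 0.301 CPM without it, with no overlap (log2 fold change 2.12, SE 0.94, adjusted p = 0.413 by edgeR). Their part in the Slc25a27 result was not tested.

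The relatives of Slc25a27 gave values on the other side of 0, and neither passed the test. Slc25a14 (UCP5), another brain-rich carrier, had 14.8, 20.4 and 19.3 CPM with IGF-1, against 18.4, 10.9 and 15.9 CPM without it, and the groups overlapped (log2 fold change 0.27, SE 0.24). Slc25a30, described first in kidney, had 27.1, 25.0 and 28.9 CPM with IGF-1, against 21.9, 29.1 and 19.8 CPM (log2 fold change 0.19, SE 0.19, adjusted p = 0.767 by edgeR), with control replicate 2 above all IGF-1 libraries. The uncoupling proteins proper carry other symbols and are not among the 47. Ucp2, the uncoupling protein that lymphocytes express, had 764, 820 and 699 CPM with IGF-1, against 625, 438 and 471 CPM without it (log2 fold change 0.57, SE 0.15, adjusted p = 0.147 by edgeR). All its IGF-1 libraries were above all controls, and the threshold was missed. Ucp3, known from muscle, had 13.9, 10.4 and 13.9 CPM with IGF-1, against 6.18, 11.3 and 7.36 CPM, with overlapping groups (log2 fold change 0.62, SE 0.29). In coding sequence Slc25a27 was 57.0% identical to Slc25a14 and 59.7% to Slc25a30 over the aligned bases, whereas Slc25a14 and Slc25a30 were 72.4% identical to each other.

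**Figure D2:**
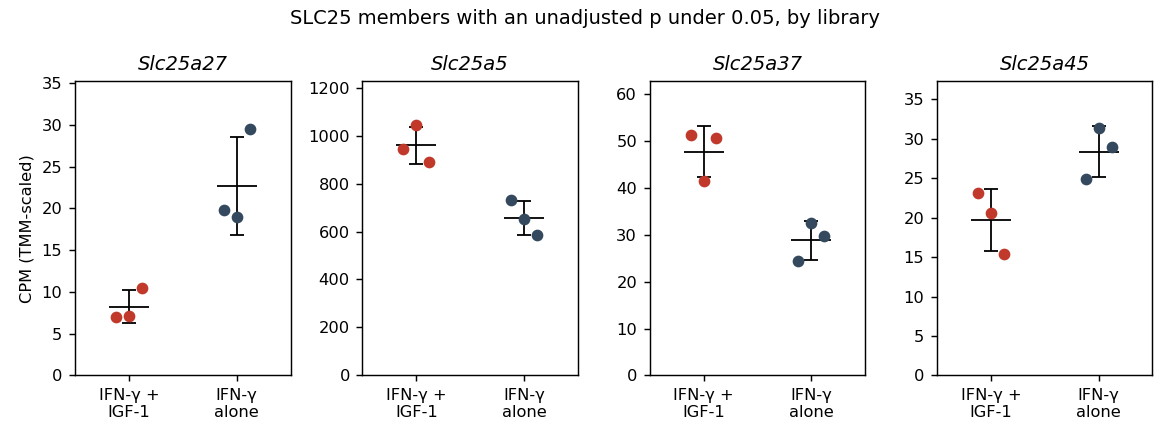
TMM-scaled CPM (y axis, from 0) in each library for the 4 SLC25 members with an unadjusted p under 0.05, IFN-γ plus IGF-1 in red at left and IFN-γ alone in dark blue at right; points are libraries, the horizontal bar the mean and the error bar the SD, n = 3. In all 4 panels the groups do not overlap: Slc25a27 and Slc25a45 are lower and Slc25a5 and Slc25a37 higher in the libraries with IGF-1, and Slc25a27 is the single member of the 4 that passed the test over all genes.

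The ADP/ATP carriers and the phosphate carrier supply the ATP synthase with its substrates. Slc25a5 (ANT2), the ADP/ATP carrier of proliferating cells, had 942, 1044 and 891 CPM with IGF-1, against 730, 651 and 586 CPM with IFN-γ alone. Every IGF-1 library was above every control library. The log2 fold change was 0.55 (SE 0.12), or 46.2% higher, and the adjusted p of 0.0969 by edgeR missed the threshold. With DESeq2 the adjusted p was 0.00138, without a filter on low counts 0.0135, and with a filter of 10 CPM in 3 libraries 0.0476. By edgeR it missed the threshold with the other scalings of libraries (0.0734 to 0.102) and with a replicate block (0.15). By limma-voom it was 0.0646. Over the fits that leave out 1 library it was 0.0672 to 0.458, with log2 fold changes of 0.47 to 0.63.

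Slc25a4 (ANT1), the ADP/ATP carrier of heart and muscle, had 117, 133 and 126 CPM with IGF-1, against 110, 122 and 112 CPM without it. The groups overlapped, and the log2 fold change was 0.13 (SE 0.12, adjusted p = 0.740 by edgeR). Slc25a31, the ADP/ATP carrier of the testis, had 1 count in the IGF-1 libraries and 0 in the control libraries. Per kb of transcript Slc25a5 stood 12.5, 12.2 and 11.0 times above Slc25a4 with IGF-1, against 10.3, 8.30 and 8.12 times without it. This ratio within a library does not depend on how libraries are scaled. It was chosen after the values were seen, and no test is given for it. Both genes make proteins of the same length from coding sequences of 894 bases that are 77.4% identical. Their first 120 coding bases from the GENCODE M21 transcripts (GRCm38) are shown because reads of this pair are assigned by their differences. Capitals mark the 26 positions at which they differ.

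Slc25a5, chromosome X, plus strand: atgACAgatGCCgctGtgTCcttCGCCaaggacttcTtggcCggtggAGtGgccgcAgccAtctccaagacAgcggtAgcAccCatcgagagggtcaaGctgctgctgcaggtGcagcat

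Slc25a4, chromosome 8, minus strand: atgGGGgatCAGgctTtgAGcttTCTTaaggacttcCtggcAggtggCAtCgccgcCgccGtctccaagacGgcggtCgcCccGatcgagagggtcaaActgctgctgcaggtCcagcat

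Over its whole transcript Slc25a4 shared no 50-base window with any other annotated gene. Slc25a5 did: 46.6% of its windows also occur in 9 other genes, all processed pseudogenes, among them Slc25a5-ps. None of the 9 is a row of the count table. Across the family 37 members shared no window and 10 did. How reads that match several places were treated was not stated in the sources, so the level of Slc25a5 is uncertain in a way that Slc25a4 and Slc25a27 are not.

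The RefSeq promoter table (GRCm38.p6) held 36 of the 47 carriers, among them Slc25a5 and Slc25a4 but neither Slc25a27 nor Slc25a37. The 250 bases upstream of each annotated start are printed for the ADP/ATP carrier pair, with capitals for any match, on either strand, to 5 motifs. The core bound by FOXO factors, which act below the IGF-1 receptor, was searched as TGTTTAC. The E-box, bound by MYC and its relatives, was searched as CACGTG. The site of STAT factors, which act below the IFN-γ receptor, was searched as TTCNNNGAA. The box bound by NF-Y was searched as CCAAT. The GC box, bound by SP1 and its relatives, was searched as GGGCGG.

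Slc25a5, chrX:36795347-36795596, plus strand, GRCm38.p6: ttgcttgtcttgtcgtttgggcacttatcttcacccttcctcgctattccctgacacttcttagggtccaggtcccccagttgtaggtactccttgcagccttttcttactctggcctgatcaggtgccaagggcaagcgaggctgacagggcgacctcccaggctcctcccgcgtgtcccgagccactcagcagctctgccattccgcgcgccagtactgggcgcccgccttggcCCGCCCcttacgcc

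Slc25a4, chr8:46211063-46211312, minus strand, GRCm38.p6: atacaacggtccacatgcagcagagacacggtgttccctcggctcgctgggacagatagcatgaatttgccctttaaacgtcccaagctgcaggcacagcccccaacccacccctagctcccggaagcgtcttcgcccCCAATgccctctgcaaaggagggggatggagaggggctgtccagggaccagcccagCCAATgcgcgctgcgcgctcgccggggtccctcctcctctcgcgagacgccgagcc

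Slc25a5 holds 1 GC box and Slc25a4 holds 2 CCAAT boxes, and neither holds the other 3 motifs in this window. Their G and C content was 61.6% and 64.8%, beside a median of 52.4% over all promoters in the table. Over the 46 promoters of the 36 carriers, 69.6% held a GC box, 45.7% a CCAAT box, 17.4% an E-box, 4.35% the STAT motif and 0 the FOXO core, while over all 32851 promoters the shares were 32.7%, 33.8%, 6.02%, 7.02% and 3.17%. Some genes have several promoters in the table, and the motifs do not overlap one another in these 2 windows. These are matches of letters and not sites.

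Slc25a3, the phosphate carrier, had 497, 541 and 533 CPM with IGF-1, against 547, 546 and 572 CPM without it. All 3 IGF-1 libraries were below the controls, by so little that the log2 fold change was -0.08 (SE 0.11, adjusted p = 0.829 by edgeR). Of the ATP-Mg/phosphate carriers, which load adenine nucleotides into the matrix under the control of calcium, Slc25a24 had 112 ± 16.4 CPM with IGF-1 and 115 ± 14.9 CPM without it, Slc25a23 9.43 ± 3.82 and 9.33 ± 0.875 CPM, and Slc25a25 16.2 ± 4.61 and 19.9 ± 1.94 CPM (SD, n = 3 each). Their log2 fold changes were -0.04 (SE 0.15), 0.02 (SE 0.31) and -0.30 (SE 0.24), and each pair of groups overlapped. Slc25a41, the calcium-independent one, had 0 of 217603829 counts, which allows up to 0.0138 CPM over the 6 libraries. This limit covers counting error only.

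Slc25a5 was the largest single contributor to the family's level. Summed over the 47 members, the libraries with IGF-1 reached 2927, 3038 and 2940 CPM, against 2761, 2630 and 2549 CPM with IFN-γ alone, and the groups did not overlap. Without Slc25a5 the sums were 1984, 1994 and 2049 CPM with IGF-1, against 2031, 1978 and 1963 CPM, and the groups did overlap. Slc25a5 took 32.2%, 34.4% and 30.3% of the family's counts with IGF-1, against 26.4%, 24.8% and 23.0% without it. Both observations were made after the values were seen.

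**Figure D3:**
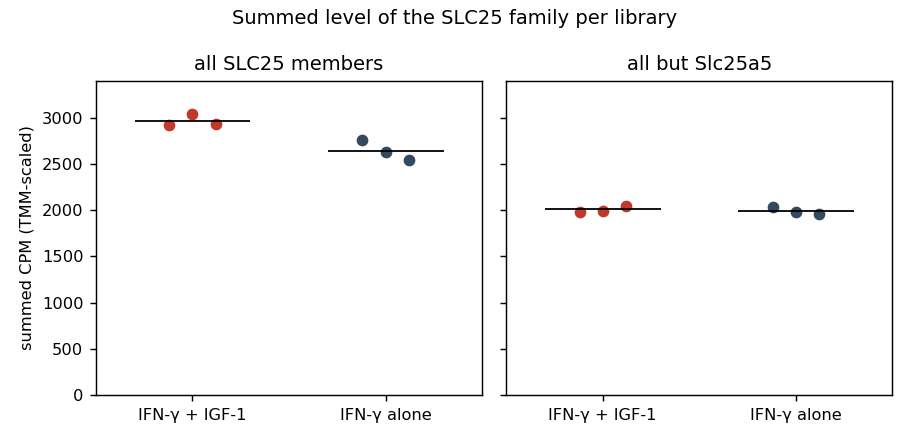
Summed TMM-scaled CPM (y axis, from 0) of the 47 SLC25 members (left) and of all but Slc25a5 (right) in each library, IFN-γ plus IGF-1 in red and IFN-γ alone in dark blue; points are libraries and the line is the mean of 3. The sums separate the groups at left, 2927 to 3038 against 2549 to 2761, and overlap at right.

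Divided by the length of the transcript with the longest coding sequence in GENCODE M21, which is the scale used here to compare genes, Slc25a5 was the most abundant carrier at 773 ± 63.1 CPM per kb with IGF-1 and 529 ± 57.9 without it, followed by Slc25a3 at 391 ± 17.2 and 414 ± 11.0 (SD, n = 3 each). These 2 did not overlap with each other or with the rest in any library. The next places were close together: Slc25a11 at 84.3 ± 3.47 and 74.5 ± 7.51 CPM per kb, Slc25a4 at 65.2 ± 4.19 and 59.6 ± 3.25, Slc25a28 at 47.7 ± 4.56 and 56.5 ± 10.6, and Slc25a1 at 50.5 ± 4.82 and 45.1 ± 7.45, the last 2 within their spread of each other. Slc25a27 ranked 27 of 47 at 2.84 ± 0.687 and 7.86 ± 2.03 CPM per kb. The lengths come from an older build than the counts, so these levels are approximate.

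**Figure D4:**
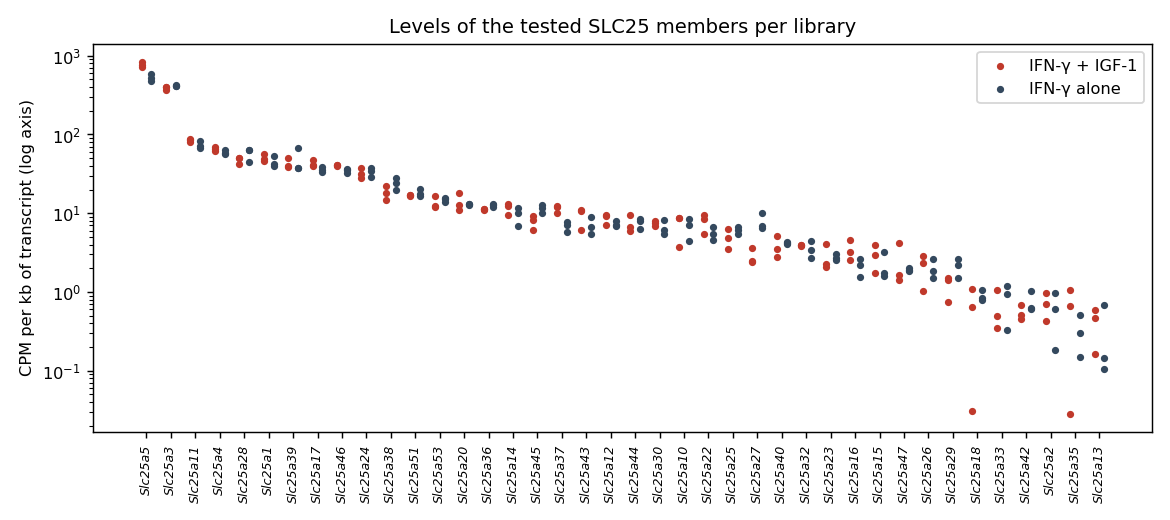
Level per library in CPM per kb of transcript (y axis, log scale) of 40 of the 41 tested SLC25 members in order of mean level (x axis), IFN-γ plus IGF-1 in red left of IFN-γ alone in dark blue. Slc25a5 and Slc25a3 lie above all others. The colours separate without overlap in 8 members (19.5% of the 41 tested, all genes 18.0%), Slc25a27, Slc25a5 and Slc25a37 among them.

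Carriers of iron and glutathione lead to haem and iron-sulfur clusters. Slc25a37 (mitoferrin-1), the iron importer best known from erythroid cells, had 51.2, 41.5 and 50.6 CPM with IGF-1, against 24.4, 32.5 and 29.7 CPM with IFN-γ alone. Every IGF-1 library was above every control library, with a log2 fold change of 0.73 (SE 0.16), or 65.6% higher. Its adjusted p of 0.104 by edgeR missed the threshold, and it was 0.00634 with DESeq2 and 0.00707 without a filter on low counts. By edgeR it also missed with the other scalings of libraries (0.102 to 0.155) and with a replicate block (0.214). It was 0.0519 by edgeR with a filter of 10 CPM in 3 libraries and 0.0784 by limma-voom. With 1 library left out it ran from 0.13 to 0.382. Slc25a28 (mitoferrin-2), the iron importer of other tissues, had 77.9, 65.2 and 76.6 CPM with IGF-1, against 67.9, 96.1 and 96.3 CPM, and the groups overlapped (log2 fold change -0.24, SE 0.16, adjusted p = 0.610 by edgeR).

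Within each library Slc25a37 per kb was 0.242, 0.234 and 0.243 of Slc25a28 with IGF-1, against 0.132, 0.124 and 0.114 with IFN-γ alone. Mitoferrin-2 was the more abundant transcript per length in every library. The ratio was picked after its members' values were seen and is given without a test. The 2 coding sequences were 71.3% identical over the 1002 aligned bases, and Slc25a28 shared no 50-base window with another gene. Slc25a37 shared 8.07% of its windows with the predicted gene Gm16867, which had 9 counts in all, and its exons overlap those of 2 annotated opposite-strand transcripts that are no rows of the table. The kit does not mark strand, so reads from those could not be told apart from its own.

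The glutathione carrier Slc25a39 had 84.2, 64.4 and 67.9 CPM with IGF-1, against 112, 64.0 and 64.0 CPM without it, where control replicate 1 stood high and the groups overlapped (log2 fold change -0.15, SE 0.22). Its relative Slc25a40 was at 10.7 ± 3.31 and 11.7 ± 0.421 CPM (log2 fold change -0.14, SE 0.27). Slc25a38, which brings in glycine for the first step of haem synthesis, had 26.1, 32.6 and 40.2 CPM with IGF-1, against 35.2, 43.0 and 50.6 CPM, with overlapping groups (log2 fold change -0.38, SE 0.20, adjusted p = 0.491 by edgeR). The enzymes of haem and iron-sulfur synthesis held 0 called genes among 16 (all genes 0.497%), with a median of 0.11 (0.06 to 0.17 with 1 library left out). Ppox, a late enzyme of the haem pathway, was at 37.7 ± 4.52 CPM with IGF-1 and 45.5 ± 6.75 CPM with IFN-γ alone (log2 fold change -0.27, SE 0.16), with overlapping groups.

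The malate-aspartate shuttle carries reducing equivalents of glycolysis into mitochondria. Its oxoglutarate/malate carrier Slc25a11 had 138, 146 and 149 CPM with IGF-1, against 142, 124 and 117 CPM (log2 fold change 0.18, SE 0.12, adjusted p = 0.627 by edgeR), with control replicate 1 inside the range of the IGF-1 libraries. Its exons overlap those of the opposite-strand Rnf167 (log2 fold change -0.19, SE 0.17). The aspartate/glutamate carrier Slc25a12 was at 54.1 ± 8.11 and 46.4 ± 3.37 CPM (log2 fold change 0.22, SE 0.15), and its liver counterpart Slc25a13 at 1.28 ± 0.690 and 0.977 ± 1.01 CPM, with SDs of about the size of the mean in the control libraries. Of the glutamate carriers, Slc25a22 had 15.4, 26.4 and 23.4 CPM with IGF-1, against 18.8, 12.7 and 15.2 CPM (log2 fold change 0.48, SE 0.25), and Slc25a18 stayed under 3 CPM in every library. The 5 genes held 4 positive values and 0 called genes, with a median of 0.22 (0.14 to 0.34 with 1 library left out).

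The citrate carrier Slc25a1, which exports the carbon used for fatty acid and sterol synthesis, had 77.3, 82.2 and 93.0 CPM with IGF-1, against 89.2, 65.4 and 71.0 CPM. The groups overlapped (log2 fold change 0.16, SE 0.15, adjusted p = 0.743 by edgeR). The dicarboxylate carrier Slc25a10 was at 14.3 ± 5.77 and 13.5 ± 4.11 CPM (log2 fold change 0.08, SE 0.35), and the oxoadipate carrier Slc25a21 had 0 counts, with the same limit of 0.0138 CPM.

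Carriers of other amino acids and of carnitine held, with Slc25a38 counted among them, 3 positive and 3 negative values, 0 called genes and a median of 0.03, whose sign turned without IGF-1 replicate 3 (-0.19) or control replicate 3 (-0.16), the highest being 0.13 without IGF-1 replicate 2. The carnitine/acylcarnitine carrier Slc25a20, needed for fatty acid oxidation, was at 24.9 ± 6.62 and 23.3 ± 0.511 CPM (log2 fold change 0.10, SE 0.21). Slc25a44, a carrier of branched-chain amino acids, was at 26.5 ± 6.69 and 27.0 ± 3.83 CPM (log2 fold change -0.03, SE 0.21). The ornithine carrier Slc25a15 was at 9.83 ± 3.67 and 7.48 ± 3.06 CPM, its relative Slc25a2 at 0.956 ± 0.378 and 0.801 ± 0.533 CPM, and the basic amino acid carrier Slc25a29 at 2.43 ± 0.832 and 4.17 ± 1.12 CPM (log2 fold change -0.78, SE 0.46). The last of these has 1 control library inside the range of the IGF-1 libraries, and at these levels differences of that size could not be separated from the spread.

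The 9 carriers of cofactors and nucleotides held 5 positive and 4 negative values, 0 called genes and a median of 0.06. That median was below 0 without IGF-1 replicate 1 (-0.096), IGF-1 replicate 2 (-0.035) or control replicate 1 (-0.0055), and it was 0.14 without IGF-1 replicate 3. Slc25a51, the importer of NAD, had 75.1, 73.6 and 76.5 CPM with IGF-1, against 89.2, 78.3 and 73.0 CPM (log2 fold change -0.10, SE 0.13, adjusted p = 0.837 by edgeR). Slc25a17, a peroxisomal carrier of cofactors, had 80.6, 71.5 and 68.8 CPM with IGF-1, against 61.3, 57.5 and 67.0 CPM, and the pyrimidine nucleotide carrier Slc25a36 had 58.8, 58.3 and 56.9 CPM, against 68.9, 67.0 and 61.8 CPM. Neither pair of groups overlapped, and neither passed (log2 fold changes 0.25, SE 0.13, and -0.18, SE 0.12). Slc25a36 shares 11.8% of its windows with the gene Gm13217. Slc25a16, linked to coenzyme A, was at 10.8 ± 3.16 and 6.73 ± 1.72 CPM (log2 fold change 0.68, SE 0.32). The folate carrier Slc25a32 and the S-adenosylmethionine carrier Slc25a26 had log2 fold changes of 0.15 (SE 0.21) and 0.06 (SE 0.46). The coenzyme A carrier Slc25a42 and the pyrimidine nucleotide carrier Slc25a33 stayed under 4 CPM in every library.

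Among carriers placed in the group of uncertain substrate, Slc25a45 had 23.1, 20.6 and 15.4 CPM with IGF-1, against 24.9, 31.3 and 29.0 CPM with IFN-γ alone. The groups did not overlap, though IGF-1 replicate 1 and control replicate 1 were close. Its log2 fold change was -0.53 (SE 0.20, unadjusted p = 0.0238, adjusted p = 0.319 by edgeR). Slc25a46, an outer membrane protein involved in mitochondrial shape, had 181, 173 and 177 CPM with IGF-1, against 154, 160 and 142 CPM, with no overlap and a log2 fold change of 0.22 (SE 0.11, adjusted p = 0.488 by edgeR). Its exons overlap an annotated opposite-strand gene, B930094E09Rik, that is no row of the table. Slc25a53 was at 43.6 ± 7.98 and 47.1 ± 2.71 CPM, Slc25a43 at 10.4 ± 3.02 and 7.78 ± 1.95 CPM, and Slc25a47, known from liver, at 3.77 ± 2.39 and 3.04 ± 0.109 CPM. Slc25a35 had the highest log2 fold change of the family, 0.85, with an SE of 1.11 at 1.06 ± 0.942 and 0.589 ± 0.337 CPM. Slc25a34 had 9 counts with IGF-1 and 6 without, Slc25a54 had 23 and 13, and Slc25a48, placed with the amino acid and carnitine carriers, had 1 and 2, too few to test.

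Genes that act with the carriers gave 0 calls among 87 tested in 6 lists, beside calls for 0.497% of all genes. At an unadjusted p under 0.05 11 were higher (12.6%, all genes 5.58%) and 2 lower (2.30%, all genes 6.24%), together 14.9% beside 11.8%. The import machinery that threads carriers through the outer membrane and inserts them by the TIM22 complex had a median of 0.12, which ran from 0.025 without IGF-1 replicate 2 to 0.21 without IGF-1 replicate 3. It held 11 positive values of 16 (68.8%, all genes 48.7%) and 0 at an unadjusted p under 0.05. The members named here, which had its smallest p, were the receptor Tomm20 (147, 141 and 134 CPM with IGF-1, against 127, 120 and 124 CPM; log2 fold change 0.19, SE 0.11) and the small chaperone Timm10b (log2 fold change 0.25, SE 0.15). Carrier family members under other symbols, tested in 4 of 5, had a median of 0.42 (0.36 to 0.42 with 1 library left out). Beside Ucp2, the outer membrane insertase Mtch2 had 227, 227 and 216 CPM with IGF-1, against 201, 178 and 177 CPM (log2 fold change 0.27, SE 0.11, adjusted p = 0.387 by edgeR), while Mtch1 was at 64.8 ± 9.04 and 73.9 ± 7.27 CPM (-0.19, SE 0.15).

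Transporters outside the family had a median of -0.01 over 20 genes, with either sign when 1 library was left out (-0.073 without control replicate 2 to 0.097 without control replicate 1). The serine carrier Sfxn1 had 74.3, 84.1 and 69.3 CPM with IGF-1, against 51.9, 62.1 and 51.1 CPM (log2 fold change 0.46, SE 0.14, adjusted p = 0.204 by edgeR), and its relative Sfxn3 had 122, 116 and 131 CPM, against 185, 133 and 188 CPM (log2 fold change -0.46, SE 0.15, adjusted p = 0.250 by edgeR). These 2 lay on opposite sides, and neither passed. The enzymes of the shuttle and of the TCA cycle had a median of 0.13 (0.09 to 0.14 with 1 library left out). Of the 22, 17 were positive (77.3%, all genes 48.7%) and 5 higher at an unadjusted p under 0.05 (22.7%, all genes 5.58%), led by the succinyl-CoA ligase subunit Suclg2 (28.0, 30.3 and 25.6 CPM with IGF-1, against 19.8, 21.4 and 17.9 CPM; log2 fold change 0.51, SE 0.17) and the malate dehydrogenase Mdh2 (log2 fold change 0.35, SE 0.14). The regulators of mitochondrial biogenesis had a median of 0.17 over 9 tested of 12. Leaving out control replicate 3 gave 0.10, and leaving out IGF-1 replicate 3 or control replicate 2 gave 0.31. The list was led by Gabpa, a transcription factor of nuclear-encoded mitochondrial genes, at 62.6, 62.7 and 62.7 CPM with IGF-1, against 44.6, 43.0 and 48.7 CPM (log2 fold change 0.46, SE 0.13, adjusted p = 0.174 by edgeR), and by Tfam, the packaging factor of mitochondrial DNA (log2 fold change 0.28, SE 0.13). The coactivator Ppargc1a averaged under 0.4 CPM in both groups and was not tested.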

How the data were processed

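The members and lists were chosen with earlier results of these data known. The authors deposited 1 table of raw read counts per gene, not normalised. The library kit was SMART-Seq HT, per the labels' protocols, which does not mark strand. The submitters' processing notes name featureCounts 1.5.3, HISAT2 2.2.1, fastp 0.23.2 and SAMtools 1.15.1 without roles, and the build GRCm39. Annotation, strand setting and treatment of multi-mapping reads: not given in the sources used here. The IFN-γ in both groups is from the series' design text.

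Genes were kept by filterByExpr (minimum count 10, minimum total 15), leaving 13483 genes and removing 0.0806% of counts. edgeR 4.0.16 in R 4.3.3 was run with TMM, estimateDisp, glmQLFit and glmQLFTest, with group as the only term. The SE is the log2 fold change divided by the square root of F. For 3 against 3 the smallest p of a two-sided exact permutation test is 0.1. The pipeline was tested on simulated data. The rule for named genes gives values per library for members with an adjusted or unadjusted p under 0.05 and for the member of highest mean CPM in each role group, and takes the 2 genes of smallest p from each pathway list. Values of other members, Mtch1, Ucp3 and Ppargc1a, and the ratios and sums, were added after they were seen. The values of 1 carrier and of 1 gene of the pathway lists are not reported here, though the counts, sums and medians include them. The alternatives were a replicate block, RLE, upper quartile and total-count scaling, DESeq2 1.42.0, limma-voom (limma 3.58.1), no filter and a stricter one, other thresholds, and leaving out each library. Library pairs within a group gave chi-square statistics of 39 to 88.5 per degree of freedom, so none was a duplicate. Transcript lengths and 50-base windows came from GENCODE M21 and promoters from RefSeq, both on GRCm38, matched by symbol (47 and 36 members). Counts are of PCR reads without molecular identifiers.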

Additional observations from a re-analysis of the deposited data

How the results depend on the processing

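With a replicate block, 0 carriers were called lower (Slc25a27 adjusted p = 0.0695), and 3 genes were higher and 5 lower over the table. The same-numbered libraries deviated together at correlations of -0.0518, 0.00312 and 0.0642, and not every library correlated best with its own number. With 3 libraries per group these values cannot decide whether the numbers pair the libraries, which the labels do not state. With total-count scaling 0 carriers were called lower, and with RLE or upper quartile scaling 1 was. DESeq2 called 2 carriers higher (Slc25a5 and Slc25a37) and 1 lower (Slc25a27), and 200 genes higher and 256 lower. With no filter on low counts 2 carriers were higher and 1 lower, with 171 genes higher and 258 lower. With at least 10 CPM in 3 libraries 1 carrier was higher and 1 lower, with 63 genes higher and 115 lower. This was over 28 carriers and 8625 genes. limma-voom called 0 carriers higher and 1 lower, with 36 genes higher and 60 lower, and the carriers' median was 0.032. At an adjusted p of 0.1, 1 carrier was higher and 1 lower, with 57 genes higher and 87 lower. At 0.01, 0 carriers were lower, with 1 gene higher and 1 lower. Leaving out each library gave 0 to 0 carriers higher and 0 to 0 lower, 0 to 24 genes higher and 0 to 31 lower, and a carriers' median of -0.025 to 0.15. The cause of these differences was not tested. The 6 carriers too low to test had from 0 to 36 counts each over all libraries. The 9 with an SE of 0.4 or more had few counts, a wide spread between libraries, or both.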
